A study of Trichechus manatus latirostris with 11 samples.

Results

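Prostaglandin and leukotriene pathway genes were examined in the buffy coat, the layer of leukocytes and platelets in spun blood, of Florida manatees. The genes were chosen by symbol: PTGS2, PTGES, PTGER2 and PTGER4 of the prostaglandin arm, ALOX5, ALOX5AP, ALOX15, LTA4H and LTB4R of the leukotriene arm, and PLA2G4A upstream of both. Of these 10 genes, 5 matched a row of the results table of the series, each with 1 transcript record, among 10080 rows with a gene symbol and 15298 rows in all. They were PTGS2, PTGER2, PTGER4, ALOX5 and LTA4H. PLA2G4A, PTGES, ALOX5AP, ALOX15 and LTB4R were not analysed here.

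The red tide group comprised 4 adult manatees rescued from a bloom area and treated for red tide illness at Lowry Park Zoo (ZooTampa), of which 2 were sampled on arrival and 2 after a week of treatment. The control group comprised 7 adult manatees outside the bloom, with 2 from the Indian River Lagoon in Brevard County, 4 from Crystal River and 1 recovering from pneumonia at the zoo. All were sampled opportunistically in the wild or in care, so that place, date, handling and treatment differed along with exposure, and their parts cannot be told apart from that of the group. For storage, the labels give RNAlater for all samples, while the methods of the study also describe buffy coats of the red tide group frozen at once.

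The table gives a mean normalized count (reads divided by the size factor of each library) for 4 libraries, for 7 libraries and for all 11. The columns carry no group name. In every row the overall mean equalled the first mean weighted by 4 and the second weighted by 7, which are the sizes of the red tide and the control group, so the means are named below by their number of libraries. Nothing else in the table names the groups. The title of the deposited results puts red tide first and the other 7 second, the same order as the weights give. The study describes as increased in red tide several genes whose mean is the lower one in the group of red tide size, so the assignment is not settled here. Each direction below refers to the numbers of libraries alone, for PTGS2 and the receptors as for the neutrophil markers, and no direction with exposure is drawn from it. Size factors stood between 0.372 and 1.56 in the 4-library group and between 0.702 and 1.73 in the 7-library group. Because a mean of whole reads can be taken apart when it is low, the reads of the single libraries could be recovered for 10143 rows in the 4-library group and for 4615 rows in all 11 libraries. Libraries are identified by their size factor, since nothing ties them to an animal. For stronger genes only the authors' group means exist, and then the spread between animals is unknown. No test of such a gene was possible, and "higher" and "lower" below describe group means.

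Prostaglandins and leukotrienes are lipid mediators made from arachidonic acid, which phospholipase A2 enzymes release from membranes. Cyclooxygenases (PTGS1 and the inducible PTGS2) convert it to prostaglandin H2, from which terminal synthases make prostaglandin E2, prostaglandin D2, prostacyclin and thromboxane, each read by its own G protein-coupled receptors. 5-lipoxygenase (ALOX5) with its helper ALOX5AP instead yields leukotriene A4, which the hydrolase LTA4H turns into the neutrophil attractant leukotriene B4. Neutrophils and monocytes are rich in the leukotriene enzymes, PTGS2 is switched on in activated leukocytes, and platelets make thromboxane and use 12-lipoxygenase (ALOX12).

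PTGS2 and the prostaglandin E2 receptor PTGER4 were past a 2-fold difference, both higher in the 4-library mean, whereas PTGER2, ALOX5 and LTA4H were within it. The prostaglandin and leukotriene arms overlapped, since the ratio of PTGER2 lay between those of LTA4H and ALOX5. Of all 15298 rows, 23.9% were at least 2-fold higher in the 4-library mean and 10.4% in the 7-library mean. Among the 6851 rows with an overall mean of at least 50, the range that holds all 5 genes, these shares were 8.92% and 8.76%. Taking the log2 of the 4-library mean divided by the 7-library mean (log2 ratio), the 3 prostaglandin genes had a median of 1.29, the 2 leukotriene genes one of -0.03 and the rows of that range one of -0.04. With so few genes these medians are descriptions only.

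PTGS2 (XM_004372925.1), the inducible cyclooxygenase, had a mean normalized count of 1041 in the 4-library group against 101 in the 7-library group. The 4-library mean was thus 10.3 times the 7-library mean, a log2 ratio of 3.37. Counting error alone was small for PTGS2. At its widest, if every read had come from the shallowest library, the 95% interval ran from 9.35- to 11.4-fold, and it covers neither the spread between animals nor that between preparations. Only 32 of the 6851 rows with an overall mean of at least 50 (0.467%) had a higher log2 ratio. How the reads of PTGS2 were divided among the 4 libraries is unknown. For 131 rows with a like ratio, at least 8-fold, an overall mean of at least 10 and known reads in the 4 libraries, the 4-library mean stayed at least 2-fold above the 7-library mean without any 1 of the 4 libraries, but the 7-library mean lay below each of the 4 libraries in only 59 (45.0%). Those rows were weaker than PTGS2, since reads were recovered for 4-library means under 100. A row with that ratio reaches an overall mean of 10 mainly through the 4 libraries, where it is high. The rows therefore cannot stand in for PTGS2, and nothing about its spread is concluded from them.

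**Figure D1:**
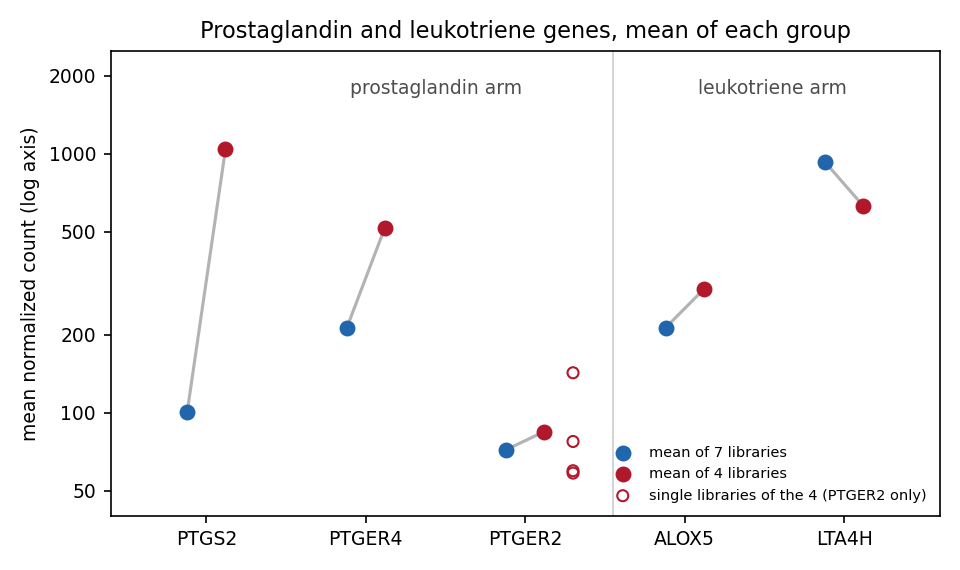
Mean normalized count (log axis) of the 5 genes in the 7-library group (blue) and the 4-library group (red), with the grey line joining the means of a gene and open circles giving the 4 single libraries of PTGER2. The 4-library mean lies above the 7-library mean for PTGS2 (1041 against 101) and PTGER4 (519 against 212), and below it for LTA4H (629 against 929). No error bars are drawn, because the table holds means only.

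Of the terminal synthases of prostaglandin E2, PTGES2 and PTGES3 had a row and were within 2-fold, and PTGES, the inducible one, was not analysed here. PTGES3, the cytosolic synthase that is also a co-chaperone, had means of 3342 over the 4 libraries and 3519 over the 7 libraries (log2 ratio -0.07). PTGES2, a membrane-associated synthase, had means of 15.6 and 18.1 (log2 ratio -0.21). From the deepest to the shallowest of the 4 libraries its normalized counts were 17.3, 20.4, 11.3 and 13.5, or 15.6 ± 4.07 (SD, n = 4), and the 7-library mean lay within their range. The difference of PTGES2 was thus smaller than the spread of the 4 libraries.

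PTGER4 (XM_004387895.1), the receptor EP4 through which prostaglandin E2 raises cyclic AMP, had means of 519 over the 4 libraries and 212 over the 7 libraries. This was a 2.45-fold higher 4-library mean (log2 ratio 1.29), with a widest 95% counting interval of 2.23- to 2.69-fold. A higher log2 ratio was found in 363 of the 6851 rows with an overall mean of at least 50 (5.30%). Among 420 rows with a 2- to 4-fold higher 4-library mean and known reads, 409 kept a higher 4-library mean without any 1 library, and 173 (41.2%) stayed past 2-fold. These rows were picked by that same ratio, so a mean that stays higher is largely set by the choice. They too were weaker, with 4-library means under 100, and where PTGER4 would fall among them is not known. Nothing about the spread of PTGER4 is concluded from them.

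PTGER2 (XM_004370865.1), the EP2 receptor, reads the same mediator through the same second messenger. Its reads were recovered in the 4 libraries and numbered 93, 60, 48 and 53, which gave normalized counts of 59.7, 58.4, 77.4 and 142.6, listed here as below from the largest to the smallest size factor. The shallowest library held the highest value, and the other 3 lay close together. Their mean was 84.5 ± 39.7 (SD, n = 4), and the 7-library mean of 71.9 lay inside their range. The log2 ratio of 0.23 turned to -0.14 without the library of size factor 0.372, so the direction of PTGER2 rested on that library. The log2 ratio of PTGER4 exceeded that of PTGER2 by 1.06. The coefficient of variation of PTGER2 over the 4 libraries was 47.0%, beside a median of 37.0% over the 1614 rows whose 4-library mean was between 50 and 100.

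ALOX5 (XM_004387960.1), the 5-lipoxygenase, had means of 299.6 over the 4 libraries and 213 over the 7 libraries. The 4-library mean was 1.41-fold higher (log2 ratio 0.49, widest counting interval 1.26- to 1.57-fold), a ratio exceeded by 22.4% of the rows with an overall mean of at least 50. LTA4H (XM_004381242.1), which makes leukotriene B4, had the opposite direction, with means of 629 over the 4 libraries and 929 over the 7 libraries. Its 7-library mean was 1.48-fold higher (log2 ratio -0.56), and 78.2% of the same rows had a higher log2 ratio. The enzymes before and after leukotriene A4 therefore differed in log2 ratio by 1.06, both within 2-fold. The log2 ratio of PTGS2 exceeded that of ALOX5 by 2.88 and that of LTA4H by 3.93.

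**Figure D2:**
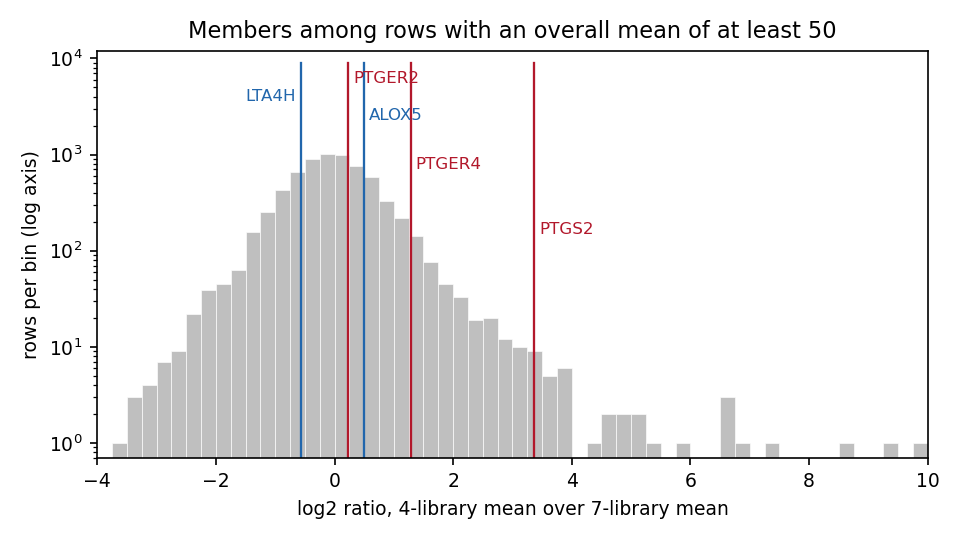
Number of rows (log axis) by log2 ratio (x axis, 4-library mean divided by 7-library mean) for the 6851 rows with an overall mean of at least 50 (grey bars), with lines at the 3 prostaglandin genes (red) and the 2 leukotriene genes (blue). PTGS2 lies at 3.37, where 0.467% of the rows lie beyond it, and LTA4H, PTGER2 and ALOX5 lie in the bulk between -0.56 and 0.49.

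Cell type markers differed between the same group means. In bulk RNA, fewer cells of a type and less RNA per cell cannot be told apart. Of 10 neutrophil markers with a row, 8 were at least 2-fold lower in the 4-library mean, among them CSF3R, CXCR2 and S100A9, and CXCL8, a chemokine that activated leukocytes also make, was 11.5-fold higher. Without CXCL8 the summed mean of the other 9 was 2181 over the 4 libraries and 12634 over the 7 libraries. Of 5 platelet markers, 4 were at least 2-fold higher in the 4-library mean and none lower, with summed means of 15250 and 4419. Of 6 monocyte markers, 1 was higher and 1 lower past 2-fold, with summed means of 2474 and 3092, and CD14 had no row. T cell markers summed to 508 and 795 (2 of 4 lower past 2-fold), B cell markers to 809 and 853 (1 of 4 lower) and NK cell markers to 30.6 and 27.8 (1 of 3 lower). Eosinophil, basophil and mast cell markers were weak, with summed means of 21.1 and 69.9 (4 of 5 lower). The 4 erythroid markers summed to 188 and 490, mostly from ALAS2 (168 and 467), with 1 higher and 1 lower past 2-fold. ALOX5 and LTA4H, which neutrophils and monocytes express strongly, stood within 2-fold, as did 4 of the 6 monocyte markers. Of the 10 neutrophil markers 9 did not, CXCL8 in the other direction. The part of cell composition in any of these ratios was not tested.

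Of 70 further genes of the pathway, 33 had a row, and 12 of these were at least 2-fold higher in the 4-library mean and 1 in the 7-library mean. Their median was 0.14 on the log2 scale, as was that of all rows (0.14). This share rested on weak genes. Among the 13 pathway genes with an overall mean under 10, 9 were at least 2-fold higher in the 4-library mean, where the background of such weak rows was 47.3%. Among the 20 with an overall mean of at least 10, it was 3, beside a background of 12.3%, and 1 was lower, beside 9.59%. The 4 past 2-fold at that level were PTGDR, PTGIR, PLAA and PLAAT3.

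**Figure D3:**
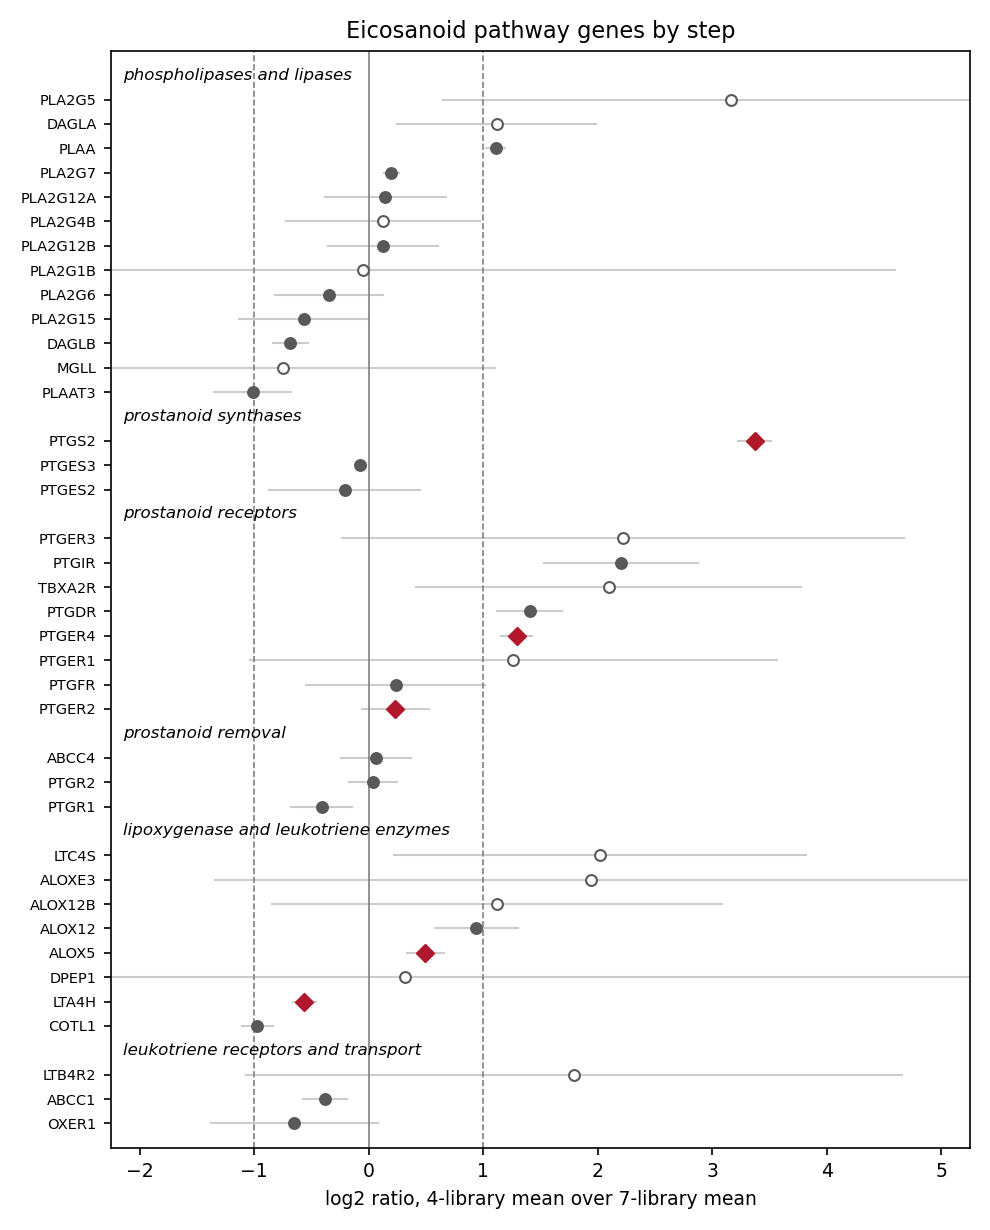
Log2 of the 4-library mean divided by the 7-library mean for each pathway gene with a row, by step, with the chosen genes as red diamonds and genes with an overall mean under 10 as open circles. Grey lines are the widest 95% counting intervals, cut at the edges, and dashed lines mark a 2-fold difference. PTGS2 lies at 3.37, the prostanoid receptors lie between 0.23 and 2.22, and PTGES2 and PTGES3 lie near 0.

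The phospholipases showed no common direction. PLAA, a ubiquitin-binding protein named for activating phospholipase A2, had means of 1363 over the 4 libraries and 632 over the 7 libraries (2.16-fold higher in the 4-library mean). PLAAT3, an acyltransferase with phospholipase A activity, had means of 54.3 and 109.6, so that the 7-library mean was 2.02-fold higher. Normalized counts of PLAAT3 in the 4 libraries were 66.1, 49.6, 37.1 and 64.6, and each lay below the 7-library mean. In rows with recovered reads of the 4 libraries and an overall mean of at least 10, the 7-library mean lay above all 4 libraries in 27.1% and below all 4 in 13.2%. PLA2G7, the secreted enzyme that degrades platelet-activating factor, was nearly level with means of 1721 and 1501. The diacylglycerol lipases, which feed arachidonic acid through another route, had opposite ratios, with a log2 ratio of 1.12 for the weak DAGLA and of -0.69 for DAGLB (means of 274 and 441). Normalized counts of DAGLA were 19.2, 4.87, 6.45 and 16.1 in the 4 libraries and between 4.04 and 7.84 in the 7 libraries, so the groups overlapped. The exact two-sided permutation test gave p = 0.0424 for DAGLA and 0.220 after Benjamini-Hochberg adjustment over all 4615 rows with reads in every library. Such reads exist only for 7-library means under 7, so a level gene with the overall mean of DAGLA (7.67) could not be tested. No difference is concluded from this p. Without the library of size factor 1.56 or that of 0.372, the exact p of DAGLA was 0.117.

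All 8 prostanoid receptors with a row, PTGER2 and PTGER4 included, had a higher 4-library mean, as did 56.4% of all rows. The median log2 ratio of the 8 receptors was 1.35, and 6 were at least 2-fold higher in the 4-library mean. So were 23.9% of all rows and 12.3% of rows with an overall mean of at least 10. The receptors were set together after their values had been seen. Of the 8, 3 had an overall mean under 10, a level at which 47.3% of rows were at least 2-fold higher. PTGDR, a prostaglandin D2 receptor, had means of 118 over the 4 libraries and 44.7 over the 7 libraries (2.65-fold higher, widest counting interval 2.17- to 3.23-fold). PTGFR, which reads prostaglandin F2 alpha, had means of 11.9 and 10.1. Its normalized counts of 5.77, 0.974, 19.3 and 21.5 in the 4 libraries spanned the 7-library mean. Without the library of size factor 0.372 the log2 ratio turned below 0 for PTGFR (-0.22), PTGER1 (-0.44) and PTGER2, and without that of 0.620 for PTGFR (-0.10) and TBXA2R. It kept its sign for PTGIR and PTGER3 without any 1 of the 4 libraries, and could not be recomputed for PTGER4 and PTGDR.

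PTGIR (XM_004381601.1), the prostacyclin receptor, was the only prostanoid receptor with an overall mean of at least 10 and reads in all 11 libraries. Reads in all 11 libraries exist only for 7-library means under 7, so at this strength a gene could be tested only if its 4-library mean was much the higher, and a level gene as strong as PTGIR could not. In the 4 libraries its reads were 20, 14, 48 and 4, or normalized counts of 12.8, 13.6, 77.4 and 10.8. In the 7 libraries its reads were 21, 10, 3, 11, 4, 4 and 4, or normalized counts of 12.1, 6.54, 2.52, 9.39, 3.61, 3.62 and 5.70. The library of size factor 0.620 stood far above the rest, and the groups overlapped in that 1 of the 7 libraries exceeded the lowest of the 4. The means were 28.6 ± 32.5 (SD, n = 4) and 6.22 ± 3.48 (SD, n = 7). The 4-library mean was 4.61-fold higher (exact two-sided permutation test over 330 splits, p = 0.00606). At its strength PTGIR could be tested only because its 7-library mean was low. No difference is therefore concluded from this p or from the one without a library below. With Benjamini-Hochberg adjustment over all 4615 rows with reads in every library, the exact permutation test gave 0.136 for PTGIR, and the lowest adjusted value of any row was 0.109. Among those rows 21.3% had an unadjusted p under 0.05 and 0.0% an adjusted one, and each of the 4 libraries stood above each of the 7 in 2.80% and below in 0.0650%. The limits on the means, under 100 for the 4 libraries and under 7 for the 7 libraries, admit rows high in the 4-library group and leave out rows high in the 7-library group, so these shares say nothing about the balance of directions. Of the 13 pathway genes with such reads, PTGIR and DAGLA had an unadjusted p under 0.05, and none had groups that did not overlap. Without the library of size factor 0.620 the 4.61-fold difference of PTGIR shrank to a log2 ratio of 1.00, and the exact permutation p was 0.0250.

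The other receptors of prostaglandin E2 and of thromboxane were near the limit of detection. PTGER3 (EP3) had 2, 2, 0 and 2 reads in the 4 libraries and 3 reads in all in the 7 libraries. Its 4-library mean was 4.66-fold higher. The 95% Poisson interval of the 3 reads alone allowed 1.60- to 22.6-fold, taking the 4-library mean as exact. With the counting error of both groups, the widest 95% interval ran from 0.851- to 25.6-fold and so included no difference. PTGER1 (EP1) had 4 reads in the 4 libraries and 6 in the 7 libraries. The thromboxane receptor TBXA2R had 12 reads in the 4 libraries, 10 of them in the library of size factor 0.620, and 8 reads in the 7 libraries, 6 of them in 1 library. Its log2 ratio of 2.09 turned to -1.25 without the library of size factor 0.620. None of the 3 had an exact permutation p under 0.05, with values of 0.130 for PTGER3, 0.467 for PTGER1 and 0.364 for TBXA2R. No difference in these receptors was detected at this depth, and how large a difference could have been detected was not tested.

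**Figure D4:**
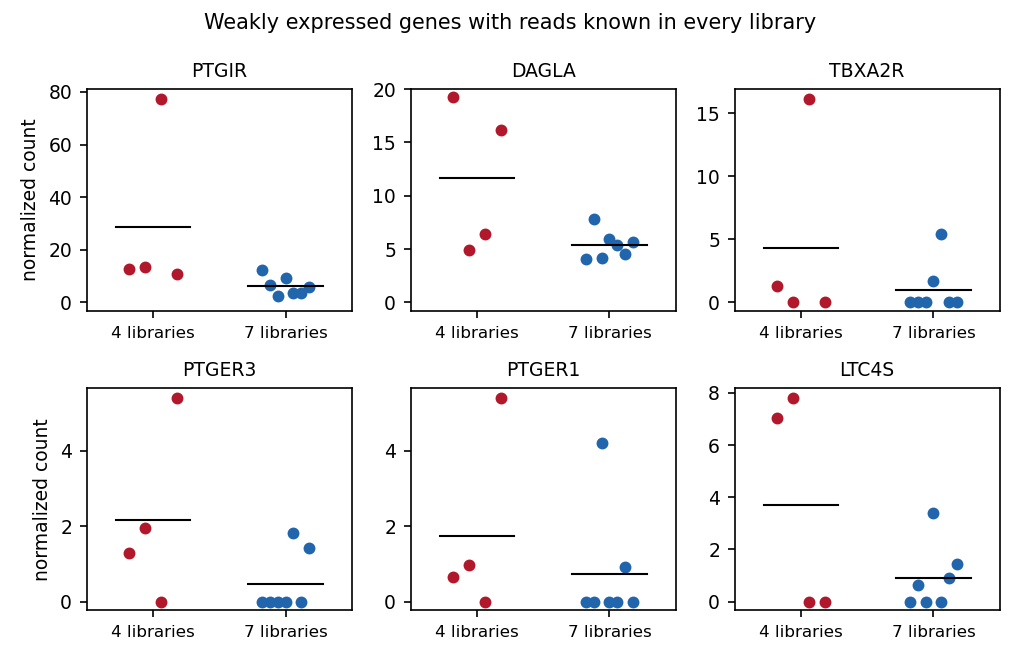
Normalized count in each of the 4 (red) and 7 (blue) libraries for 6 weakly expressed genes with reads known in all 11 libraries, with black lines at the group means. The highest PTGIR and TBXA2R values, 77.4 and 16.1, belong to the same library, and the groups of all 6 genes overlap.

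Of the enzymes and carriers that remove prostaglandins, PTGR1, PTGR2 and ABCC4 had a row and were within 2-fold, and HPGD and SLCO2A1 were not analysed here. PTGR1, a reductase that inactivates both prostaglandins and leukotriene B4, had normalized counts of 100.1, 82.7, 95.1 and 94.2 in the 4 libraries, or 93.0 ± 7.32 (SD, n = 4), and a 7-library mean of 124. Each of the 4 libraries lay below that mean, although the log2 ratio was only -0.41. PTGR2 had means of 159.6 and 155.7. The prostaglandin exporter ABCC4 had means of 74.8 over the 4 libraries and 71.5 over the 7 libraries, but its normalized counts of 54.5, 55.5, 168 and 21.5 in the 4 libraries varied widely. Without the library of size factor 0.620 the log2 ratio of ABCC4 turned from 0.06 to -0.71. The leukotriene C4 exporter ABCC1 had means of 175 and 228.

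On the lipoxygenase side, the platelet enzyme ALOX12 had normalized counts of 46.8, 18.5, 149.9 and 43.0 in the 4 libraries, or 64.6 ± 58.3 (SD, n = 4), and a 7-library mean of 33.7 that lay inside their range. Without the library of size factor 0.620 its log2 ratio moved from 0.94 to 0.10. COTL1, an actin-binding protein that also binds 5-lipoxygenase, had means of 352 over the 4 libraries and 692 over the 7 libraries, just within 2-fold (log2 ratio -0.97). LTC4S, the leukotriene C4 synthase, had 11, 8, 0 and 0 reads in the 4 libraries and 7 reads in the 7 libraries. The groups overlapped (exact permutation test, p = 0.124), and all reads of the 4-library group came from the deeper libraries, of size factor 1.56 and 1.03. LTB4R2, the low-affinity leukotriene B4 receptor, had 2 reads in 1 of the 4 libraries and 3 reads in 1 of the 7 libraries. OXER1, a receptor for another 5-lipoxygenase product, had normalized counts of 5.77, 17.5, 14.5 and 10.8, each below its 7-library mean of 19.0.

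Of the 25 further pathway genes with recovered reads in the 4 libraries, 8 were highest in the library of size factor 0.620, 8 in that of 0.372, 6 in that of 1.56 and 3 in that of 1.03. The library of 0.620 held the highest normalized count of the 4 libraries for PTGIR (77.4), ALOX12 (149.9), ABCC4 (168) and TBXA2R (16.1). It also did so for PLA2G12A (46.7), PLA2G12B (48.4), PLA2G4B (17.7) and MGLL (4.84). The platelet markers with recovered reads had the same order at the top, with 24.4, 44.8, 179 and 40.4 for GP1BA, a subunit of the von Willebrand factor receptor, and 48.1, 45.8, 152 and 18.8 for GP9 of the same complex. The neutrophil markers CXCR1 (122), CXCR2 (168) and MMP9 (116) were highest in that library too, as were NCAM1 of NK cells and the erythroid markers SLC4A1 and HBM, while the neutrophil markers PADI4 and MPO were highest in others. PTGER2 (highest in the library of size factor 0.372) and PLAAT3 (highest in that of 1.56) were not. Over the 1614 rows with 4-library means between 50 and 100, the library of size factor 0.620 held the highest value in 26.0%. That of 0.372 did so in 31.2%, that of 1.56 in 23.0% and that of 1.03 in 19.7%. Of the pathway genes highest in the library of 0.620, only ALOX12 and ABCC4 had 4-library means in that range. The others were weaker, so nothing is concluded from the count of genes per library. The part of platelet RNA in the ratios of the pathway genes highest in the library of 0.620 was not tested. Whether PTGS2 and PTGER4 share this order cannot be seen from their means.

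**Figure D5:**
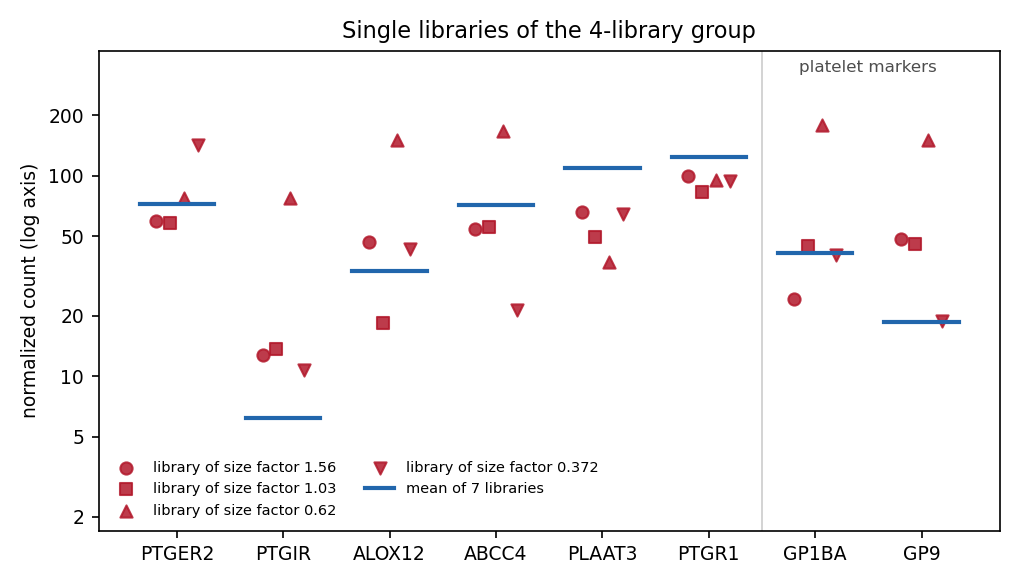
Normalized count (log axis) in each of the 4 libraries, marked by size factor, for 6 pathway genes and 2 platelet markers, with blue lines at the 7-library mean. The library of size factor 0.620 (upward triangles) is highest for PTGIR, ALOX12, ABCC4, GP1BA and GP9, and all 4 libraries lie below the 7-library mean for PLAAT3 and PTGR1.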

How the data were processed

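RNA from 11 buffy coats was depleted of ribosomal and globin RNA and sequenced. The authors trimmed reads with Cutadapt, aligned them to TriManLat1.0 with Bowtie2, discarded duplicates and reads with several positions, counted the rest per gene and ran DESeq in the DEB tool. For the counting program and annotation release, the sources used here give no name. The signal values deposited by the authors are means of counts divided by size factors, over 4, 7 and 11 libraries. The table's fold change, log2 fold change, p-value and adjusted p-value columns are the authors' comparison and were not used. The number of unused per-sample columns was 0.

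Rows were matched to RefSeq symbols of TriManLat1.0 by record without version (10080 of 15298), taking the stronger record of a symbol. The worth of 1 read in each library was found from the lowest means and refined by least squares. Reads were kept where a single combination gave the mean to within 6e-10 below 10 and 6e-09 above, for 4-library means under 100 and 7-library means under 7. In data simulated for recovery, 99.9% of 1424 4-library means and 98.3% of 1373 7-library means gave a single combination, of which 100% were true. Both recovered groups returned the overall mean in all 4615 rows. Counting intervals assume every read from the shallowest library. They cover counting error only, and the Poisson intervals cover only that of the 7-library reads, with the 4-library mean taken as exact. Exact permutation p-values measure the spread between these libraries. The count test fixed for tables of single samples could not be used. Members were all named, and beside them pathway genes past 2-fold with an overall mean of at least 10 and those of the same mediators. DAGLA, DAGLB, PLA2G7, COTL1, ALOX12, TBXA2R, PTGFR, LTC4S, OXER1, ABCC1, ABCC4, PTGR1, PTGR2, GP1BA, GP9 and the neutrophil markers were chosen after their values were seen. So were PLA2G4B, PLA2G12A, PLA2G12B and MGLL. Members and lists were chosen with earlier results of these data known. Alternatives concerned pseudocount, centring, fold, low means, records and single libraries. Python 3.11.15, numpy 2.4.6, pandas 2.3.3 and scipy 1.17.1 were used.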

Additional observations from a re-analysis of the deposited data

Results flagged for a closer look

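In 12 of 39 sets of single libraries (4 or 7) of pathway genes, the highest library stood farther from the next than a gap rule of 1 false call in 20 sets allows. PTGIR reached 77.4 in the 4 libraries, with the next at 13.6. TBXA2R reached 16.1 in the same library, with the next at 1.28, and 5.42 in 1 of the 7 libraries. PLA2G6 reached 40.4 in the 4 libraries, with the next at 28.2. The remaining sets rested on few reads, and their highest normalized counts were 1.28 for PLA2G1B, 5.38 for LTB4R2 and 0.641 for DPEP1 in the 4 libraries. In the 7 libraries they were 2.72 for LTB4R2, 0.904 for DPEP1, 1.96 for ALOXE3, 3.41 for LTC4S and 4.19 for PTGER1. Where only 1 library of a set held any reads, as for DPEP1 and LTB4R2 in both groups, the rule flags that library whatever its value. The 12 of 39 therefore cannot be read against 1 in 20.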

How the results depend on the processing

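The ratios of the 5 chosen genes moved by less than their counting interval with a pseudocount of 1 and with centring on the median of rows with an overall mean of at least 10 (-0.01). Leaving out 1 of the 4 libraries at a time, PTGER2 ran from -0.14 to 0.37 on the log2 scale, and no such value exists for PTGS2, PTGER4, ALOX5 and LTA4H. At 4-fold, 1 chosen gene was higher in the 4-library mean. Counts of other pathway genes higher in the 4-library mean moved from 12 to 5 at 4-fold, 7 with the pseudocount and 3 at an overall mean of at least 10, and those higher in the 7-library mean from 1 to 5 at 1.5-fold, 0 at 4-fold and 0 with the pseudocount. Over all rows, 3652 were higher in the 4-library mean, 1255 at an overall mean of at least 10 and 2359 with 1 row per symbol, against 1594, 981 and 914 in the other direction. Added after the data had been seen, leaving out single libraries gave log2 ratios of 1.00 to 2.48 for PTGIR and 0.10 to 1.25 for ALOX12. The sign turned for TBXA2R (-1.25 to 2.51), PTGER1 (-0.44 to 1.68) and PTGFR (-0.22 to 0.62). DAGLA had an exact permutation p of 0.0424, which ran from 0.0167 to 0.117 without single libraries of the 4, and PTGIR ran from 0.00833 to 0.0250. No paired analysis was possible because the libraries cannot be tied to the replicate numbers of the labels. No chosen gene had several records to sum.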
